A study of Mus musculus with 2 samples.

Results

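Matricellular and adhesive glycoproteins of the extracellular matrix were followed in mouse embryonic fibroblasts grown with or without fibroblast growth factor 2 (Fgf2), a mitogen that signals through tyrosine kinase receptors on the cell surface. The set held 10 genes chosen by name, with earlier results of these data known: Fn1, Tnc, Thbs1, Thbs2, Thbs3, Postn, Sparc, Spp1, Tgfbi and Matn2. All probes that the platform annotation assigns to these symbols were taken, which gave 17 of 25697 probes and 8 of the 10 genes. Fn1 and Spp1 had no probe named here and were not analysed here.

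The comparison had 2 groups of 1 array each, male mouse embryonic fibroblasts labelled with the agent Fgf2 and male mouse embryonic fibroblasts labelled with no agent. The labels give no strain, dose, time of exposure or number of pooled embryos, and the series title ties the cultures to a growth factor protocol for making induced pluripotent stem cells. The series' design text gives both cultures as without Fgf2, so every direction below rests on the titles and agent labels. With 1 array per group no difference has a replicate or a p-value, and each describes this pair of cultures.

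Fibronectin forms fibrils on the cell surface that organise the rest of the fibroblast matrix, and integrins bind to it. The matricellular proteins (thrombospondins, tenascins, periostin, SPARC and osteopontin) are secreted into that matrix and modulate adhesion, growth factor activity and collagen assembly more than they bear load. Many of them are abundant in embryos, wounds and fibrosis, and transforming growth factor beta (TGF-beta) is a well known inducer of several.

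With Fgf2, Thbs1, Thbs2 and Sparc transcripts were at least 2-fold lower, Thbs3 was lower by less, and Tgfbi was slightly higher. Tnc differed by less than the spread between probes of one gene given below. A probe was called detected at a detection p below 0.01, the p being the deposited measure of how a signal stands against background beads. Of the 10 genes 6 were detected on both arrays, Postn and Matn2 on neither. Among these 6, 3 were at least 2-fold lower with Fgf2 and 0 at least 2-fold higher. The background is 6898 genes detected on both arrays, of which 2.52% passed 2-fold downwards and 1.80% upwards. Among the 1725 of these genes with a mean level of 10.32 or more on the log2 scale, a background set chosen after the data were seen, the shares were 2.14% and 1.04%. Because the members were chosen with earlier results of these data known, the contrast with these shares is a description and no test. The median difference of the 6 genes was -0.78 on the log2 scale, against 0.03 for all 6898 genes, and 4 of the 6 were below 0, against 45.9% of all genes. Every difference is the log2 level with Fgf2 minus that without it, after background correction and quantile normalization, by the brightest probe of each gene. The only measure of error available was the spread between probes of one gene on this pair of arrays, a pooled SD of 0.22 (1749 genes with 4102 probes), or 0.18 in the brightest genes (589 genes with 1448 probes), and it does not cover variation between cultures. In bulk RNA, fewer cells of a type and less RNA per cell cannot be told apart.

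**Figure D1:**
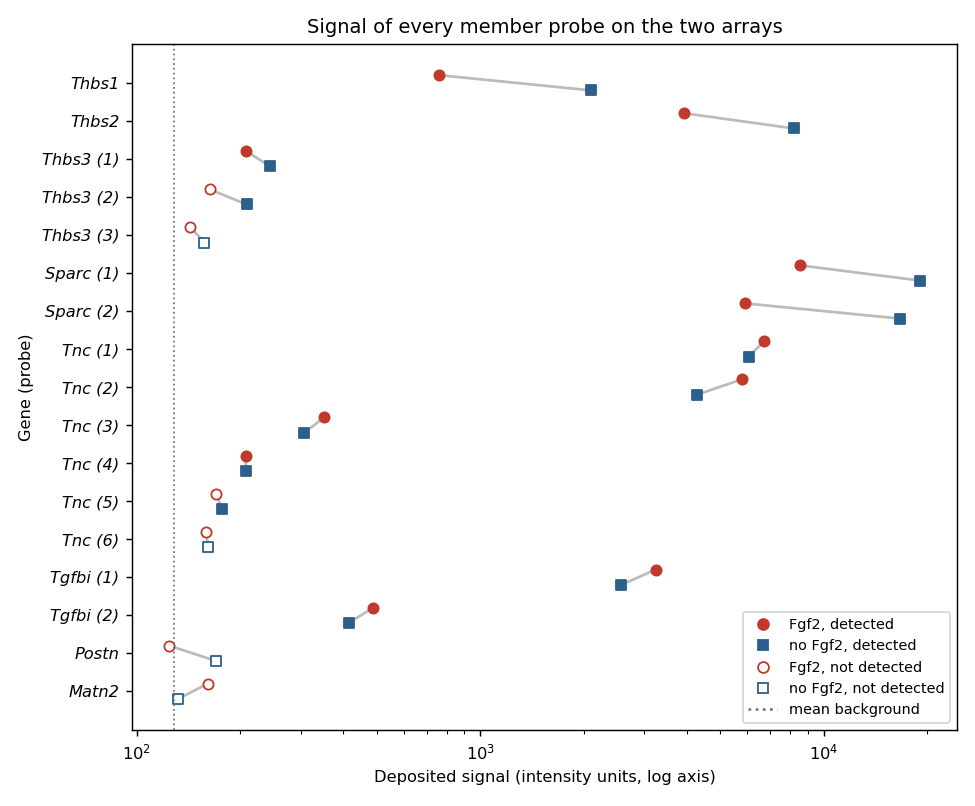
Deposited signal (intensity units, log axis) of each of the 17 probes with Fgf2 (red circles) and without it (blue squares); filled marks were detected, open marks were not, and the dotted line is the mean background. The probes of Thbs1, Thbs2 and Sparc lie far to the left with Fgf2, while the bright probes of Tnc and Tgfbi lie slightly to the right.

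Thrombospondins are secreted calcium-binding glycoproteins. Thbs1, which activates latent TGF-beta and inhibits blood vessel growth through the receptors CD36 and CD47, had the greatest difference of the 6 genes. Its only probe gave a signal of 761.2 with Fgf2, against 2100.7 without it, and both arrays gave it a detection p of 0. It was 3.07-fold lower with Fgf2, a difference of -1.62. A difference this low or lower was found in 60 of the 6898 genes (0.87%).

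Thbs2 encodes the closest relative of thrombospondin 1, a trimeric protein also known as an inhibitor of angiogenesis and as a factor in collagen fibril formation. Its single probe had a signal of 3926.1 with Fgf2, against 8175.8 without Fgf2. It was 2.09-fold lower, a difference of -1.07, just past the 2-fold mark, and 157 genes (2.28%) lay as low or lower. It passed the mark by less than the SD between probes given above, so its count as 2-fold lower is borderline. The 250 bases upstream of its annotated start are shown because Thbs2 and Sparc, further on, are the called genes with a promoter entry in the RefSeq table, here with GRCm38.p6 coordinates (chr17:14694263-14694512, minus strand). Capitals mark matches on either strand to the motifs described with the promoters of the other genes.
Thbs2: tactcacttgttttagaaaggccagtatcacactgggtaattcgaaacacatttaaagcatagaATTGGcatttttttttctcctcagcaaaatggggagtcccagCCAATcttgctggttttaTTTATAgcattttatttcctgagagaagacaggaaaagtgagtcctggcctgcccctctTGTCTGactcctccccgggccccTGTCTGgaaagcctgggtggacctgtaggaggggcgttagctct

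Thbs3 belongs to the pentameric thrombospondins, together with Thbs4 and Comp. Its brightest probe had a signal of 208.6 with Fgf2, against 244.8 without Fgf2. This probe was detected on both arrays and was 1.41-fold lower with Fgf2, a difference of -0.49, short of the 2-fold mark. A second probe gave 163.0 with Fgf2, where it was not detected, against 209.3 without Fgf2, where it was. It has only a bound, at least 1.54-fold lower, taken against the dimmest detected probe of the array with Fgf2. The third, at 143.4 with Fgf2 and 157.5 without it, was detected on neither array. All 3 signals of Thbs3 were lower with Fgf2, but they lay close to the mean background of 128.4 with Fgf2 and 127.9 without it. Without background correction the brightest probe differed by -0.25.

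Sparc, also known as osteonectin, encodes a collagen-binding glycoprotein that loosens cell adhesion and takes part in collagen fibril assembly. It had a pair of probes, each given a detection p of 0 by both arrays. The brighter had a signal of 8520.0 with Fgf2, against 19072.4 without Fgf2. The other had 5914.1 with Fgf2, against 16663.0 without Fgf2. Both were more than 2-fold lower with Fgf2, by 2.24-fold and 2.85-fold, with differences of -1.16 and -1.51. These differ from each other by 0.35, a range wider than in 71.4% of the 1749 genes with several detected probes, so the size of the Sparc difference is less certain than its direction within this pair of arrays. By the brighter probe 115 genes (1.67%) were as low or lower. All of these signals stayed well under the highest on the arrays, 41959.4 with Fgf2 and 44247.7 without it. The upstream bases of Sparc, shown for comparison with those of Thbs2, come from the same table (chr11:55420081-55420330, minus strand).
Sparc: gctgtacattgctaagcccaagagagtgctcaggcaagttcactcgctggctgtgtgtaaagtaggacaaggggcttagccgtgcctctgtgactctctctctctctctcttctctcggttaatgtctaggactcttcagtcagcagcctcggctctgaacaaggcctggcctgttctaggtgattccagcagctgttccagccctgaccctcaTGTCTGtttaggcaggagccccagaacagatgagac

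**Figure D2:**
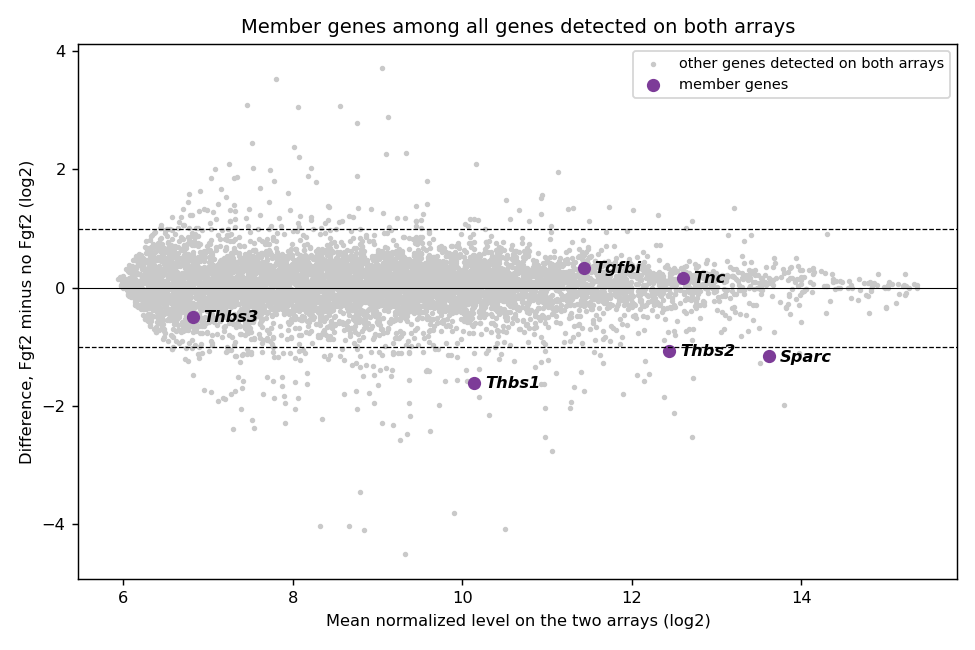
Difference (Fgf2 minus no Fgf2, log2) against mean normalized level (log2) for the 6898 genes detected on both arrays, with the 6 detected members in purple and dashed lines at 2-fold. Thbs1, Sparc and Thbs2 lie below the lower dashed line, and Thbs3, Tnc and Tgfbi lie between the lines.

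Tnc encodes tenascin-C, a large hexameric glycoprotein that interferes with cell adhesion to fibronectin and is prominent in embryonic and healing tissue. It was the best covered gene, with 6 probes. The brightest had a signal of 6706.4 with Fgf2, against 6044.4 without Fgf2, and the next 5769.6 with Fgf2, against 4286.7 without Fgf2. Their differences were 0.17 and 0.45. By the brightest probe, 2374 genes (34.42%) had a difference as high or higher. The third gave 351.0 with Fgf2 and 307.7 without it, a difference of 0.25, and the fourth 207.5 with Fgf2 and 208.3 without it, a difference of -0.04. So 3 of the 4 probes detected on both arrays were slightly higher with Fgf2, none by as much as 2-fold, and their mean difference was 0.21. Their range of 0.49 was wider than in 85.6% of genes with several detected probes, and exceeds the difference of the brightest. The remaining pair lay near background. One had 170.3 with Fgf2, where it was not detected, and 177.2 without it, where it was, and its bound is 1.02-fold. The other, with 159.5 with Fgf2 and 161.0 without Fgf2, was detected on neither array. All 6 probes carry the same transcript accession in the annotation, so which parts or splice forms of Tnc they read was not determined here.

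Tgfbi encodes a secreted protein with fasciclin domains that binds collagen and integrins and is named for its induction by TGF-beta. Its brighter probe had a signal of 3241.1 with Fgf2, against 2577.6 without Fgf2, and the other 488.8 with Fgf2, against 414.7 without Fgf2. Both were detected on both arrays and higher with Fgf2, by 1.26-fold and 1.22-fold. The pair of differences, 0.34 and 0.29, lay close together, with a range smaller than in most genes: 9.3% of genes with several detected probes had a smaller one. A difference this high or higher was found in 1283 genes (18.6%), so the size was common on these arrays. Tgfbi was thus higher by its 2 probes while Thbs1, Thbs2 and Sparc were lower by all of theirs. Upstream bases of Tnc (chr4:64047016-64047265, minus strand, at the more upstream of its annotated starts) and Tgfbi (chr13:56609336-56609585, plus strand) are given as those of genes that were not lower.
Tnc: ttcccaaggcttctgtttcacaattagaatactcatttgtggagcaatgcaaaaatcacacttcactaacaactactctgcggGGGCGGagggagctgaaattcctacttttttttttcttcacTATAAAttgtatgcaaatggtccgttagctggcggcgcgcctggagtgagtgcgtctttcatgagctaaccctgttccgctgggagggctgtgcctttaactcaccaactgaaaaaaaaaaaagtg
Tgfbi: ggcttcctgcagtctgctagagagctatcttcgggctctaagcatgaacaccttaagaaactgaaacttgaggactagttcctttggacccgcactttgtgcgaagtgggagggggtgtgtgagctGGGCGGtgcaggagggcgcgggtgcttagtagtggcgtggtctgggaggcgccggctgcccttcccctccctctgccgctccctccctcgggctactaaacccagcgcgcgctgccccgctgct

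Of the 10 genes 7 had an entry in the RefSeq promoter table, and Fn1, Thbs1 and Matn2 had none. In the 250 upstream bases, 6 motifs were searched on both strands: TATAAA for the TATA box, CCAAT for the binding of nuclear factor Y, GGGCGG for that of Sp1, TGACTCA for that of AP-1, CAGACA for that of Smad proteins, and the CArG box of serum response factor. None of these matches overlapped in the windows shown. CAGACA matched at 2 places in Thbs2 and 1 in Sparc, between bases -67 and -31 from the start, and at no place in the Tnc and Tgfbi windows shown. It matched at no place in Thbs3, which was lower by less than 2-fold, or in Postn, and at 1 place in Spp1, which has no value here. It is a common word, found in 17.1% of 32851 promoter windows, and also matched in the window of the other annotated start of Tnc. Thbs2 further held CCAAT at 2 places and TATAAA at 1, which occur in 33.8% and 12.4% of windows. Neither was particular to Thbs2: CCAAT also matched in Thbs3 and Spp1, and TATAAA in Tnc, Postn and Spp1. In the Tnc window shown TATAAA lay at the same bases as in Thbs2, -126 to -121. GGGCGG, in 32.7% of windows, matched in Tnc, Tgfbi and Thbs3 but in neither Thbs2 nor Sparc. TGACTCA and the CArG box, in 4.46% and 1.47% of windows, matched in none of the 7 genes. These matches describe letters in short windows and no binding was measured.

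Postn encodes periostin, a fasciclin-domain protein of the same family as Tgfbi that binds collagen and tenascin-C in wounds and connective tissue. Its only probe had a signal of 124.5 with Fgf2, under the mean background, against 169.8 without Fgf2. The detection p-values were 0.53 with Fgf2 and 0.010025 without it, so it missed the threshold on the array without Fgf2 by less than 1 step of the p-value scale (0.001253). No fold is given for it. Matn2, a filament-forming adaptor protein that links other matrix components, also had 1 probe. Its signal was 161.0 with Fgf2 and 132.0 without it, with detection p-values of 0.031 with Fgf2 and 0.32 without Fgf2. Neither passed the threshold of 0.01, so no direction is given. Its order was opposite to that of Postn.

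**Figure D3:**
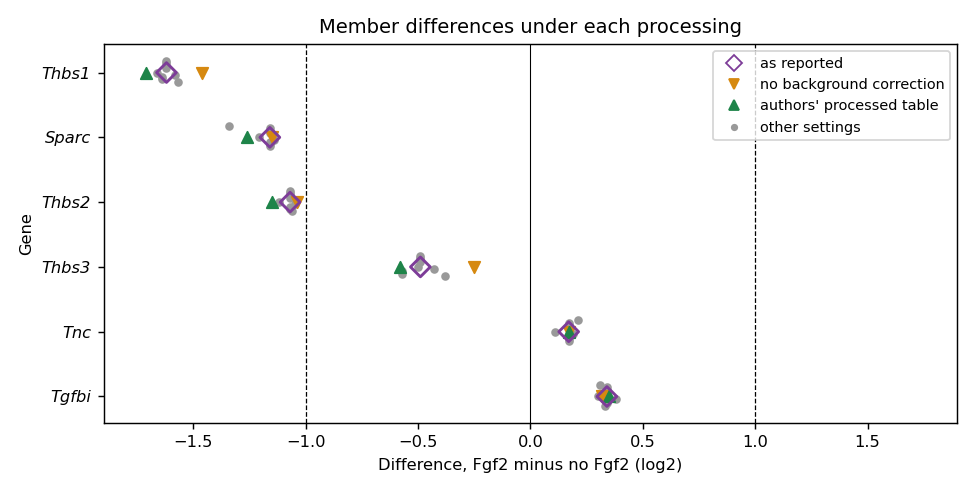
Difference (Fgf2 minus no Fgf2, log2) of each of the 6 detected genes as reported (diamonds), without background correction, in the authors' processed table and under the other settings, with dashed lines at 2-fold. Thbs1 (-1.71 to -1.46), Sparc (-1.34 to -1.14) and Thbs2 (-1.15 to -1.04) stay beyond the 2-fold line throughout, and Tnc and Tgfbi stay above 0.

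Relatives of these proteins were mostly below detection. Of all 16593 genes with a named probe, 6898 were detected on both arrays, 472 only without Fgf2 and 279 only with it. Of 19 genes of the same protein families 18 had a named probe, Smoc2 having none, and 16 of the 18 were detected on neither array. Among the undetected were the other pentameric thrombospondins Thbs4 and Comp, the tenascins Tnr, Tnxb and Tnn, the matrilins Matn1, Matn3 and Matn4, and Sparcl1. The exceptions were both relatives of Sparc. Both were lower with Fgf2, against 45.9% of all genes detected on both arrays, and 1 was at least 2-fold lower, against 2.52%. Smoc1, a SPARC-related basement membrane protein, had a signal of 375.6 with Fgf2, against 1416.8 without Fgf2, and was 5.04-fold lower. Fstl1, a secreted follistatin-like glycoprotein with a SPARC-like calcium-binding region, had 3438.9 with Fgf2, against 5774.4 without it, and was 1.71-fold lower.

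Receptors for these proteins differed in both directions. Of 19 receptor and co-receptor genes 18 had a named probe and 12 were detected on both arrays, with 1 at least 2-fold lower with Fgf2, 2 at least 2-fold higher (2.52% and 1.80% of all genes) and a median difference of -0.31. Itgb1, the beta subunit shared by most fibronectin and collagen receptors, had a signal of 369.1 with Fgf2, against 673.8 without Fgf2, and was 2.23-fold lower. Its other probe differed by -0.91. Itga3 and Itga6, alpha subunits best known as laminin receptors, were 2.51-fold and 2.44-fold higher, and Sdc2, a cell surface heparan sulfate proteoglycan, 1.93-fold lower. The signals of Itga6, 322.5 with Fgf2 and 197.2 without it, were nearer to background than those of Itga3 and Sdc2. Chosen after their values were seen, Itga5, the alpha subunit of the classical fibronectin receptor, differed by -0.84, with 356.2 with Fgf2 and 538.7 without it. Itgav and Itgb5, which pair as a vitronectin receptor, differed by -0.39 and -0.83. Of the thrombospondin 1 receptors, also chosen so, Cd47 differed by 0.27 and Cd36 was detected on neither array. Cd44, the receptor for hyaluronan and osteopontin and likewise chosen after its value was seen, was 1.45-fold higher by its only probe detected on both arrays.

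Among 15 regulators of matrix genes in the TGF-beta, serum response factor and Yap pathways, 14 had a named probe and 12 were detected on both arrays. The median difference was -0.12, with 2 at least 2-fold lower with Fgf2 and 0 higher (2.52% and 1.80% of all genes). Both were TGF-beta ligands: Tgfb2 had a signal of 223.2 with Fgf2, against 640.9 without Fgf2, and Tgfb3 had 497.1 with Fgf2, against 1241.2 without Fgf2, differences of -2.29 and -1.57. Tgfb1 differed by -0.49 and Srf, which encodes serum response factor, by -0.56. The signals of Tgfb1, 203.2 with Fgf2 and 237.1 without it, lay close to background. The receptor genes Tgfbr1 and Tgfbr2, the signal transducers Smad2, Smad3 and Smad4, and Yap1 and Wwtr1, all named after their values were seen, lay between -0.14 and 0.11 by their brightest probes. The other detected probe of Wwtr1 differed by 0.18, and that of Tgfbr1 by 0.1, against -0.1 for its brightest. Tgfbi, named for this pathway, differed by 0.34, and a link between the ligands and the members was not tested.

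**Figure D4:**
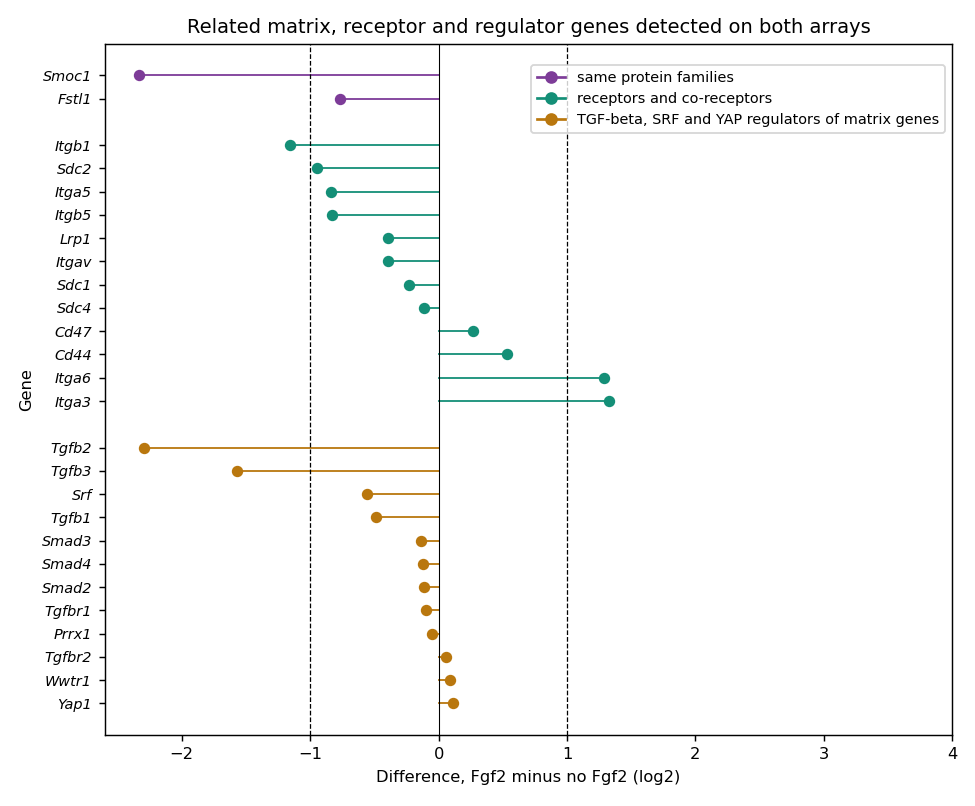
Difference (Fgf2 minus no Fgf2, log2) of the genes detected on both arrays in the lists of related proteins (purple), receptors (green) and regulators (ochre), with dashed lines at 2-fold. Smoc1, Tgfb2, Tgfb3 and Itgb1 lie beyond the lower line, and Itga3 and Itga6 beyond the upper.

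Probes detected numbered 10262 (39.9%) with Fgf2 and 10564 (41.1%) without it, and the median signals were 148.5 with Fgf2 and 149.3 without Fgf2. Of 10 fibroblast markers 9 were detected with Fgf2 and 10 without it, with summed signals of 47511 with Fgf2 and 52970 without Fgf2. Among the 9 detected on both arrays 5 were below 0 (45.9% of all genes) and 4 above. At least 2-fold lower with Fgf2 were 3, and at least 2-fold higher 1 (2.52% and 1.80% of all genes). The lower ones were the collagen genes Col1a1 (difference of -2.53) and Col1a2 (-1.85) and the receptor gene Pdgfrb (-1.80), and the higher one was Pdgfra (1.36). The signals of Pdgfrb, 196.5 with Fgf2 and 397.5 without it, were much nearer to background than those of the others. The other 5, Vim, Thy1, Dcn, S100a4 and Col3a1, lay between -0.69 and 0.66 by their brightest probes. The other detected probe of Col3a1 differed by -1.44, past the 2-fold mark, and that of Dcn by 0.93. Endothelial markers were detected on neither array (0 of 6, summed signals of 850 with Fgf2 and 806 without Fgf2). Of 5 macrophage markers with a named probe Ptprc, Adgre1 and Itgam were detected on neither array while Lyz2 and Cd14 were on both. Their summed signals were 1145 with Fgf2 and 977 without Fgf2. Cd14 had 304.3 with Fgf2, against 176.2 without Fgf2, a difference of 1.58, and Lyz2 differed by 0.17. Of 5 osteoblast markers with a named probe only Sp7, with a difference of -0.08, was detected on either array (summed signals of 824 with Fgf2 and 837 without it). Of 5 epithelial markers with a named probe Krt8 and Krt18 were detected on both arrays and Krt14 only without Fgf2, while Cdh1 and Krt5 were detected on neither. The summed signals of these 5 were 1063 with Fgf2 and 1431 without Fgf2. Krt14 had 157.9 with Fgf2, against 482.8 without Fgf2, a bound of -2.55 on the log2 scale. Krt8 differed by -0.86 and Krt18 by 0.36. Each summed signal includes the background of every probe. The part of other cell types in the differences of Thbs1, Thbs2 and Sparc was not tested.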

How the data were processed

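Total RNA of each culture (300 ng, per the labels' protocols) was amplified into biotinylated cRNA and read on 1 single-colour Illumina bead array. The deposited signals are linear intensity values that differ in their quantiles, so no normalization between the arrays is seen in them. Per the file headers a detection p-value accompanies each deposited signal. The authors' processed table holds log2 values with the same median, 4.30, on both arrays, and of its background treatment nothing was found in the sources used here. The submitters' processing notes name BeadStudio 3.2, RMA and lumi, without roles.

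The background mean and SD were inferred from the detection p-values, followed by normexp correction, an offset of 16, quantile normalization and log2 (limma 3.58.1, R 4.3.3; Python 3.11.15, pandas 2.3.3, matplotlib 3.10.9). The offset pulls differences of dim probes towards 0. The probe with the highest mean level over both arrays stood for its gene, and a signal depends on its probe, so levels are compared between arrays only. A probe detected on 1 array has a bound, taken against the lowest level among detected probes of the other array (5.99 with Fgf2, 5.87 without it) or its own level if higher. In the platform annotation 23978 probes have 1 gene symbol, 0 have several and 1719 have none. Of the named probes 23962 matched a RefSeq gene by Entrez number. With 1 array per group no test was possible, and precision is limited by the number of arrays. The correction and normalization were tested on simulated data in which only probes well above background were changed, so that test does not cover dim probes.

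The members and the lists of relatives, receptors, regulators and cell type markers were chosen with earlier results of these data known. All members were named with every probe, and from each of the lists of relatives, receptors and regulators up to 4 genes with the greatest absolute difference, plus any with a bound of at least 2-fold. The text marks other genes of these lists whose values it gives as chosen after the values were known. Cell type markers were counted as whole lists, of which Cd68, Csf1r, Runx2 and Epcam had no named probe. Differences are given for those detected on both arrays, some of them as a range. With 2 arrays no gene was named for likeness of pattern. The alternatives tried were other background corrections and offsets, the authors' processed table, cyclic loess, median scaling, the mean over probes, other detection filters and other fold thresholds.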

Additional observations from a re-analysis of the deposited data

How the results depend on the processing

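Thbs1, Thbs2 and Sparc were at least 2-fold lower with Fgf2 under each of the 11 other corrections, normalizations, filters and probe summaries tried, and no member was 2-fold higher under any. The median difference of the members ranged from -0.87 in the authors' processed table to -0.65 without background correction. When no detection filter was applied Postn joined them, making 4 lower genes of 8, against 1.72% of all 16593 genes. At a threshold of 3-fold 1 member, Thbs1, was counted as lower. Of 66 differences of single genes recomputed under these settings, 65 moved by less than the SD between probes and 0 changed sign. The exception was Thbs3, at -0.25 without background correction. The detection filters only choose which genes are counted, so each single difference was the same under them as reported above. The mean over probes could change only Tnc, Sparc and Tgfbi. These settings therefore could not move the differences of Thbs1 and Thbs2. Over all genes the count at least 2-fold lower was 174 of 6898 (2.52%), against 108 of 6898 (1.57%) without background correction. It was 279 of 7649 (3.65%) among genes detected on at least 1 array and 286 of 16593 (1.72%) with no filter. At least 2-fold higher were 124 (1.80%), against 54 (0.783%) without background correction. The higher genes numbered 219 (2.86%) among genes detected on at least 1 array and 236 (1.42%) with no filter. Of the 6898 genes, 500 (7.25%) were lower and 466 (6.76%) higher at 1.5-fold, and 63 (0.913%) and 31 (0.449%) at 3-fold. Signal over background limits Postn, Matn2, Thbs3 and the dim probes of Tnc. No paired analysis was possible because each group has 1 array.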

Other observations

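The probes of Postn and Matn2, detected on neither array, stood further apart in the authors' processed table than in the signals. Postn had a log2 value of 2.88 with Fgf2 and 5.28 without it there, a difference of -2.40, whereas log2 signals without background correction differed by -0.44. For Matn2 the authors' processed table gave 4.94 with Fgf2 and 3.25 without it, a difference of 1.69, against 0.29 without background correction. For the bright probe of Thbs2 the same pair of sources gave -1.15 and -1.04. A reader of the authors' processed table alone would see Postn with a greater absolute difference than Thbs1, at -1.71, although neither array called Postn detected.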
